A study of Mus musculus with 12 samples.

Results

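The unfolded protein response and secretory pathway was described here by 36 listed mouse genes, in T cells with and without Blimp1. Blimp1, the product of Prdm1, is a transcription factor known in plasma cells for its part in the secretory programme. The rule for the list used no measured values, but the list was chosen with earlier results of these data known. Each gene was read from the probe of the deposited table with the highest mean over 12 arrays. Of the 36 genes, 33 had a probe and 30 passed a filter on dim probes, among 17759 genes with a probe and 12119 genes tested in the series. Eif2ak3, Dnajb11 and Sec61g, with no annotated probe among those used, were not analysed here. Canx, Dnajc3 and Spcs2 had probes but stayed at log2 intensities of 4.35 to 4.86, above the median of their array on 1, 0 and 2 of the 12 arrays, and were not tested.

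There were 3 arrays for each of 4 groups of sorted CD4 T cells: Blimp1_CKO pTreg, Ctrl pTreg, Blimp1_CKO Teff and Ctrl Teff, where pTreg are Foxp3-positive regulatory cells and Teff are Foxp3-negative effector cells. Naive T cells of C57BL/6 mice aged 8 to 12 weeks, all carrying a green fluorescent Foxp3 reporter, either had Blimp1 (Ctrl) or lacked it (CKO). Equal numbers of the donors' cells went together into RAG1-/- hosts, which lack T and B cells, and were taken back 6 to 8 weeks later by reporter, CD4 and allotype. The labels name neither the promoter that drove the deletion nor any other allele of the donors. All 4 groups were combined from spleen, mesenteric nodes and large-intestinal lamina propria, and all were exposed for 4 h to PMA and ionomycin, which mimic signals of the T cell receptor. The labels do not say that replicates came from separate animals, so each p-value reflects only how these samples spread, which may be technical.

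The endoplasmic reticulum folds proteins that are bound for the cell surface or for secretion. When unfolded protein accumulates, the sensors IRE1 (Ern1), PERK (Eif2ak3) and ATF6 signal to the nucleus: IRE1 splices Xbp1 mRNA, PERK favours translation of ATF4, which induces Ddit3 (CHOP), and ATF6 is cleaved to an active factor. Their targets are chaperones, disulfide isomerases, the machinery that removes misfolded proteins for degradation, and the translocation and glycosylation machinery. In plasma cells this programme is tied to antibody secretion, and in T cells to the output of cytokines.

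The targets share sequences near their start sites. RefSeq promoters on mouse build GRCm38.p6, each 250 bases before to 50 after a gene's start, were found for 30 of the 36 listed genes. The ER stress response element (ERSE), searched on both strands as CCAAT and CCACG with any 9 bases between them, was in 8 of these 30 (26.7%), against 39 of all 32851 promoters (0.119%). Its shorter relative ERSE-II, searched as ATTGG and CCACG with any 1 base between them, was in 2 of 30 (6.67%), against 12 of 32851 (0.0365%). The XBP1-binding element TGACGTGG was in 0 of 30, against 0.676% of all promoters. No listed gene held more than 1 kind of these motifs. The following upstream stretches, chosen because these 7 genes were both tested and held a motif before the start, are printed in the direction of the gene with the fixed letters of ERSE or ERSE-II in capitals. Hspa5 is at chr2:34771995-34772063 (plus strand), Hsp90b1, with 2 elements, at chr10:86705513-86705686 (minus), Calr at chr8:84847055-84847123 (minus), Creld2 at chr15:88819490-88819558 (plus), Pdia6 at chr12:17266461-17266529 (plus), Herpud1 at chr8:94386347-94386407 (plus) and Syvn1 at chr19:6046502-6046570 (plus).
Hspa5: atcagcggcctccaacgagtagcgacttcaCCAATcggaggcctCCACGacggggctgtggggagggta
Hsp90b1: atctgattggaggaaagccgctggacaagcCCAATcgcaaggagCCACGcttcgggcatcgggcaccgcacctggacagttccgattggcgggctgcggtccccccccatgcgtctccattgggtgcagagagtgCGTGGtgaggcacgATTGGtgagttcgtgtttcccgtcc
Calr: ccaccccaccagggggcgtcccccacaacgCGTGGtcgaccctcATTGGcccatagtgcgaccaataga
Creld2: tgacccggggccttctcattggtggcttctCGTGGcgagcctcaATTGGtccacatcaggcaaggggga
Pdia6: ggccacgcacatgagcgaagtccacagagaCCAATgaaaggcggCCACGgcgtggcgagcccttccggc
Herpud1: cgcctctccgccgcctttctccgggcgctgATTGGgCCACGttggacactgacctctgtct
Syvn1: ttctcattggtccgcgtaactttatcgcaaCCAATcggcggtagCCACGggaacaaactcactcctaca

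The arrays were checked before the genes were compared. Array medians lay between 4.66 and 4.68 on the log2 scale and correlations between arrays between 0.943 and 0.988. The brighter Prdm1 probe was higher on the arrays labelled CKO, at 9.16, 8.47 and 9.48 in CKO pTreg against 5.19, 6.07 and 6.03 in Ctrl pTreg, and at 7.83, 9.0 and 7.94 in CKO Teff against 4.64, 5.39 and 4.73 in Ctrl Teff. The position of this probe relative to the deleted stretch is unknown here, so it does not check the genotype, and each genotype difference below is one between arrays labelled CKO and arrays labelled Ctrl. The brightest Foxp3 probe separated the sorted cells, at 7.29 to 8.94 in pTreg and 4.42 to 4.85 in Teff. The gene's dimmer probes overlapped between the cell types, the second brightest at 5.14 to 6.40 in pTreg and 4.81 to 7.35 in Teff. All 7 T cell markers with a probe were above the array median on 12 of 12 arrays, Cd4 at 4.95 to 6.40. Their mean was lower on the arrays labelled CKO without overlap, at 10.30 to 10.48 in CKO pTreg against 10.49 to 10.98 in Ctrl pTreg, and at 10.07 to 10.26 in CKO Teff against 10.58 to 10.66 in Ctrl Teff. Of the 7 markers, 6 were below 0 between genotypes in pTreg (median log2 fold change −0.34) and 7 in Teff (median −0.46), and 0 passed the test in either. Markers of other cells were present too. The mean of 11 neutrophil markers, of 12 listed, ran from 6.19 to 8.84 in CKO pTreg, 6.52 to 9.79 in Ctrl pTreg, 7.46 to 10.14 in CKO Teff and 6.57 to 10.74 in Ctrl Teff. The mean of 6 of 8 basophil and mast cell markers was 9.75 and 9.18 on CKO Teff arrays 1 and 2, and between 4.92 and 6.26 on the other 10 arrays. The mean of 6 of 8 CD8 and NK cell markers ran from 6.58 to 6.97 in CKO pTreg, 6.74 to 7.42 in Ctrl pTreg, 7.82 to 9.71 in CKO Teff and 7.54 to 7.75 in Ctrl Teff. That of 10 of 11 myeloid and MHC class II markers ran from 7.19 to 7.30, 6.55 to 7.63, 6.94 to 8.62 and 5.76 to 7.99 in the same groups. Of 12 B and plasma cell markers 5 were tested, with means of 5.02 to 5.69. Among them Pou2af1, a transcriptional coactivator named after its values were seen, was at 9.15, 7.93 and 8.63 in CKO pTreg, against 6.16, 6.54 and 6.61 in Ctrl pTreg, without overlap (2.13 ± 0.51, SE, limma adjusted p = 0.280, and 0.0115 with same-numbered arrays as a block). In Teff it was at 9.02, 7.19 and 9.16 in CKO, against 9.12, 7.94 and 8.85 in Ctrl, with overlap. The other tested markers of this list, Cd79b, Jchain, Sdc1 and Mzb1, did not share this. Their log2 fold changes in pTreg were −0.08, 0.01, −0.06 and −0.12, and they lay near the array medians, at 4.34 to 5.04 over all arrays. The part of these markers in the comparisons below was not tested.

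**Figure D1:**
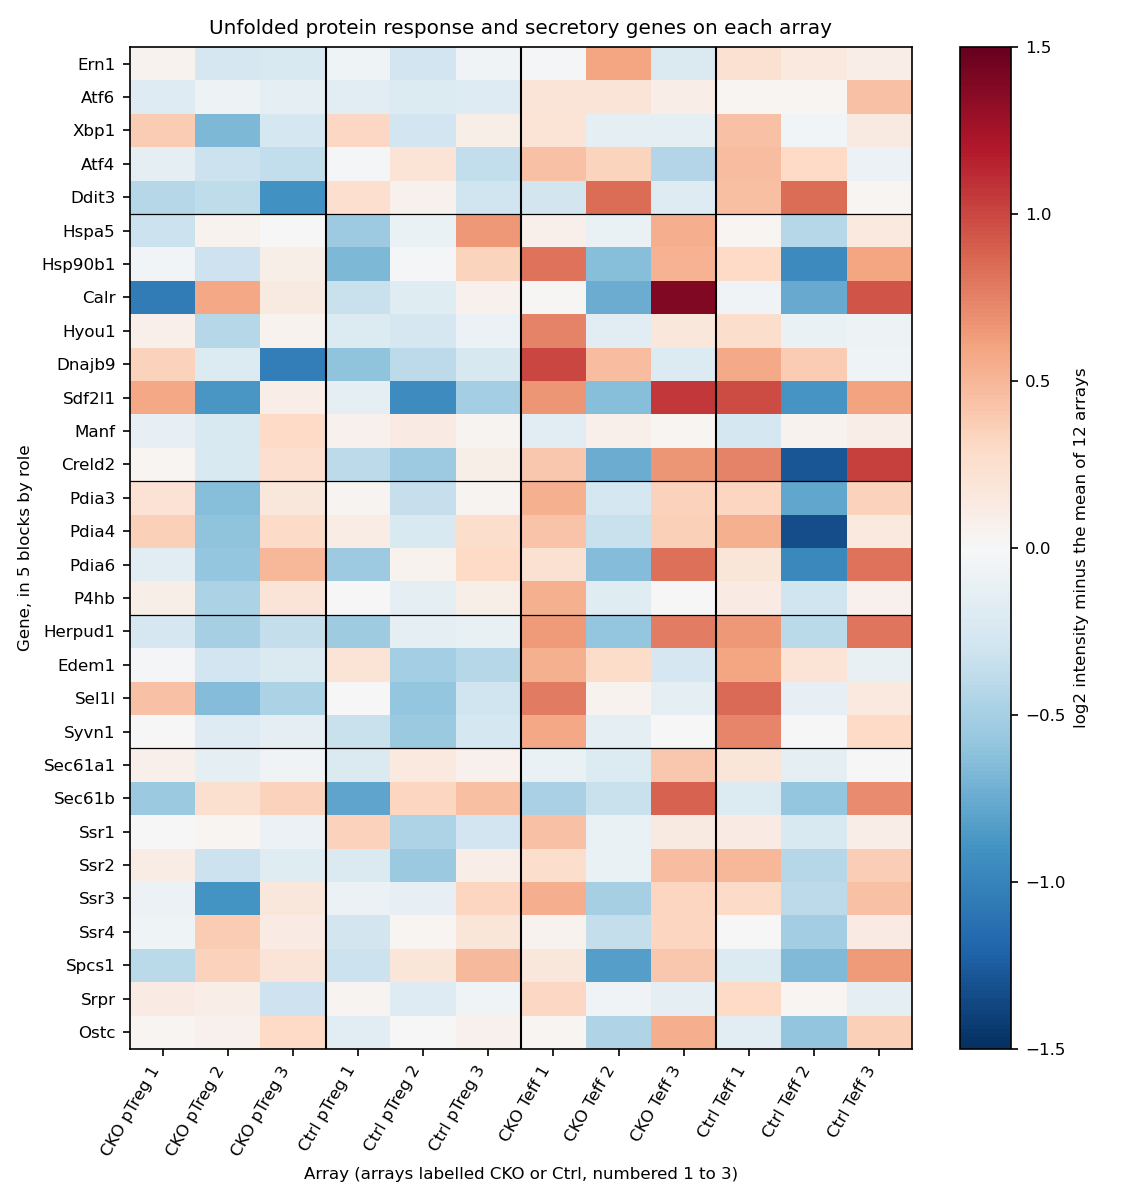
Log2 intensity of the 30 tested genes on each of the 12 arrays, minus each gene's mean over 12 arrays. Columns are arrays in the order CKO pTreg, Ctrl pTreg, CKO Teff and Ctrl Teff, rows are genes in 5 blocks by role (sensors and factors, chaperones, disulfide isomerases, degradation, translocation and glycosylation), and red is above the gene's mean. The 2 Teff arrays numbered 2 share blue cells across most chaperones and the disulfide isomerases.

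Arrays labelled CKO and Ctrl were compared first, within pTreg and within Teff. In pTreg, 0 of the 30 genes passed at an adjusted p under 0.05 (limma, Benjamini-Hochberg over 12119 genes), where 0.099% of all genes passed, and 0 had an unadjusted p under 0.05, where 5.33% of all genes did. In Teff, 0 of 30 passed (0.0165% of all genes), and 0 had an unadjusted p under 0.05 (4.17%). The median log2 fold change of the 30 genes was 0.03 in pTreg, where that of all genes was 0.00, with 17 genes above 0 and 13 below it (49.7% of all genes). In Teff it was 0.04, where that of all genes was −0.02, with 18 genes above 0 and 12 below it (55.8% of all genes). Without CKO Teff array 2 alone, 1 of the arrays set apart further on, the Teff median was 0.30, and without the CKO and Ctrl arrays of that number it was 0.04. The intervals say how large a difference these arrays leave room for. The 95% interval lay within 1 log2 unit of 0 for 21 of 30 genes in pTreg (82.2% of all genes) and 23 of 30 in Teff (84.8%).

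Arrays of the same number deviated together between CKO and Ctrl of one cell type, so a fit with the number as a block was made as well. Across the 30 genes, the residuals of same-numbered arrays correlated at 0.434 to 0.579 in pTreg and at 0.611 to 0.897 in Teff. With the block, 0 of 30 genes passed in pTreg (2.18% of all genes) and 0 in Teff (0.099%). In pTreg, 3 genes had an unadjusted p under 0.05 with the block, Ddit3, Sdf2l1 and Syvn1, where 14.1% of all genes did, and in Teff 0 genes did, where 10.4% of all genes did. The 95% interval with the block lay within 1 log2 unit of 0 for 30 of 30 genes in each cell type, where it did for 93.6% of all genes in pTreg and 95.3% in Teff.

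**Figure D2:**
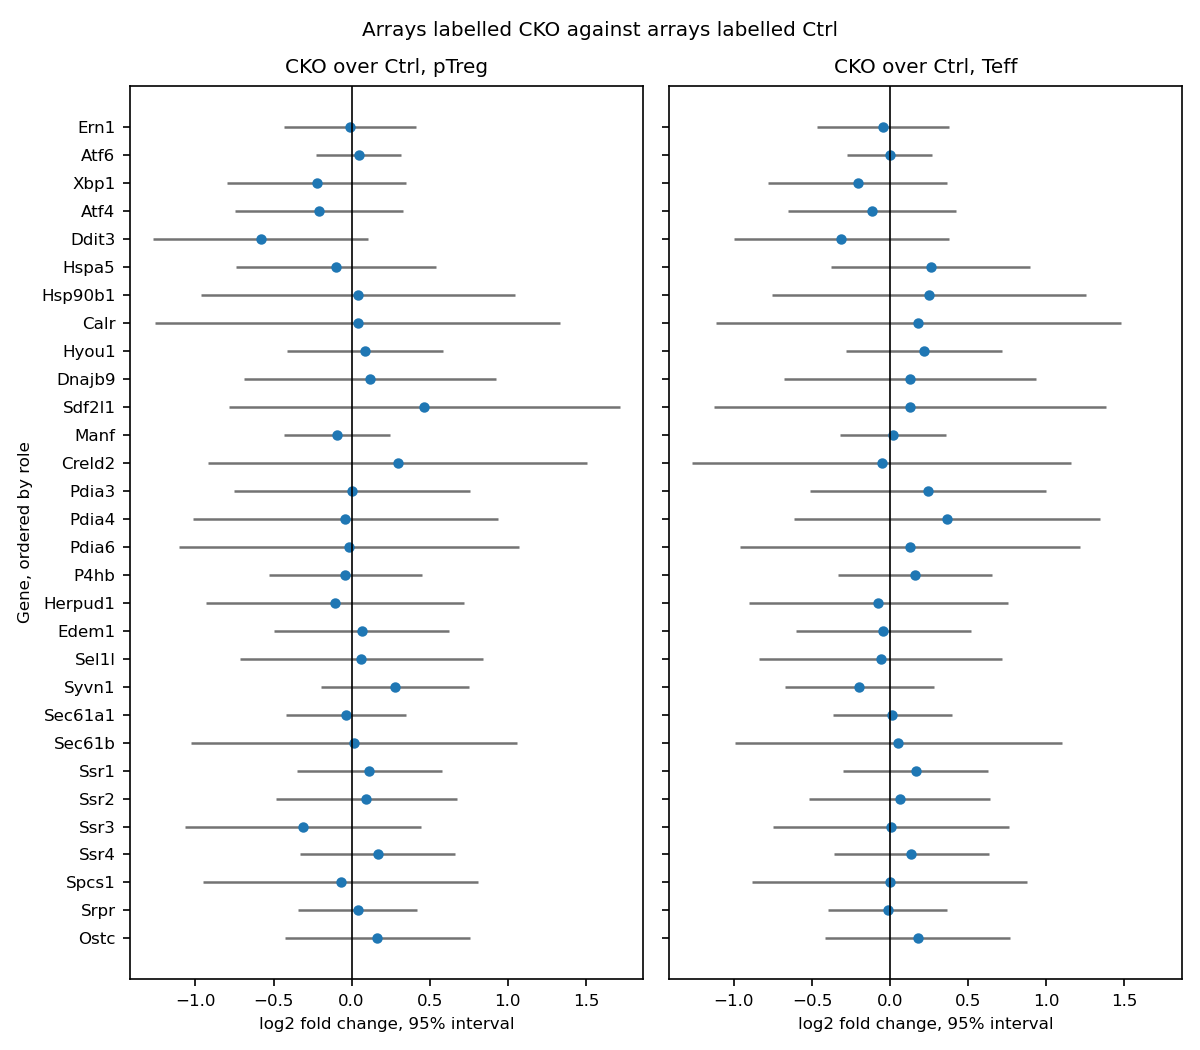
Log2 fold change of arrays labelled CKO over arrays labelled Ctrl for the 30 tested genes in pTreg (left) and Teff (right), with 95% intervals from limma without the block (n = 3 per group). Every interval spans 0, and the fold changes run from −0.58 (Ddit3) to 0.47 (Sdf2l1) in pTreg and from −0.31 (Ddit3) to 0.36 (Pdia4) in Teff.

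Among the sensors and transcription factors, Xbp1 had log2 intensities of 11.99, 10.93 and 11.33 in CKO pTreg, against 11.91, 11.32 and 11.69 in Ctrl pTreg. In Teff the values were 11.80, 11.46 and 11.46 in CKO, against 12.04, 11.57 and 11.74 in Ctrl. The groups overlapped in each cell type. The log2 fold change was −0.22 in pTreg (95% interval −0.80 to 0.35) and −0.21 in Teff (−0.78 to 0.36), and the CKO array was the lower in 2 of 3 pTreg pairs and 3 of 3 Teff pairs. Leaving out 1 array at a time, the pTreg value ran from −0.51 to 0.02, with 0.02 without CKO pTreg array 2. The array reads total Xbp1 signal at this probe, and the probe's position relative to the spliced stretch is unknown here.

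Ddit3, which encodes the stress factor CHOP, had the smallest p of the 30 genes between genotypes. It was at 7.52, 7.56 and 7.04 in CKO pTreg, against 8.20, 8.01 and 7.65 in Ctrl pTreg. The groups did not overlap, and CKO was the lower in 3 of 3 pairs, by 0.45 to 0.69. The log2 fold change was −0.58 ± 0.31 (SE, n = 3 per group, limma adjusted p = 1.00, and 0.0966 with the block, so it passed in neither fit). The gene's second probe gave −0.75, with 6.32, 6.53 and 6.25 in CKO pTreg against 7.20, 7.16 and 6.98 in Ctrl pTreg. In Teff, Ddit3 was at 7.67, 8.79 and 7.76 in CKO, against 8.40, 8.78 and 7.98 in Ctrl, a log2 fold change of −0.31 ± 0.31 (adjusted p = 1.00). Of the 30 genes, Ddit3 alone was lower without overlap in pTreg (6.36% of all genes), and in Teff 0 were lower (3.89%) and 0 higher (2.88%) without overlap.

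Atf4, the factor above Ddit3, was at 10.79, 10.60 and 10.55 in CKO pTreg, against 10.89, 11.12 and 10.55 in Ctrl pTreg, and at 11.36, 11.25 and 10.49 in CKO Teff, against 11.39, 11.22 and 10.84 in Ctrl Teff. Its log2 fold changes were −0.21 in pTreg and −0.12 in Teff. A second Atf4 probe gave the other sign in pTreg (0.36), so no direction is given for this gene there. The sensor genes were dim. Ern1 lay at 4.91, 4.61 and 4.64 in CKO pTreg, against 4.80, 4.58 and 4.82 in Ctrl pTreg, and at 4.83, 5.46 and 4.64 in CKO Teff, against 5.10, 5.01 and 4.96 in Ctrl Teff. Atf6 lay at 4.51, 4.62 and 4.55 in CKO pTreg, against 4.54, 4.49 and 4.51 in Ctrl pTreg, and at 4.90, 4.89 and 4.79 in CKO Teff, against 4.72, 4.73 and 5.14 in Ctrl Teff. In each cell type the genotypes overlapped for these 2 genes, and all pTreg values of Atf6 were below the array medians.

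Hspa5, the chaperone BiP that holds the sensors inactive, was at 5.21, 5.59 and 5.53 in CKO pTreg, against 5.0, 5.44 and 6.18 in Ctrl pTreg. In Teff it was at 5.61, 5.44 and 6.08 in CKO, against 5.56, 5.11 and 5.69 in Ctrl. The groups overlapped, with log2 fold changes of −0.10 ± 0.29 in pTreg and 0.26 ± 0.29 in Teff (SE). The other chaperones and co-chaperones did not pass either. Sdf2l1, a co-factor of BiP, was at 7.73, 6.28 and 7.25 in CKO pTreg, against 7.02, 6.20 and 6.64 in Ctrl pTreg, higher in CKO in 3 of 3 pairs, with overlap and a log2 fold change of 0.47 ± 0.57 (SE, limma adjusted p = 1.00, 0.266 with the block). Hyou1, a large chaperone of the same compartment, was at 5.76, 4.84 and 5.19 in CKO Teff, against 5.28, 4.92 and 4.94 in Ctrl Teff (0.22 ± 0.23). Over the 8 tested chaperones and co-chaperones the median log2 fold change was 0.06 in pTreg and 0.15 in Teff.

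The 4 disulfide isomerases Pdia3, Pdia4, Pdia6 and P4hb, which form and rearrange disulfide bonds, had a median log2 fold change of −0.03 in pTreg, within −0.04 to 0.00. In Teff all 4 were above 0, at 0.13 to 0.36 with a median of 0.20, and Pdia4 was at 8.27, 7.51 and 8.20 in CKO Teff, against 8.38, 6.52 and 7.99 in Ctrl Teff. The 9 genes of translocation, signal cleavage and glycosylation had medians of 0.04 in pTreg and 0.05 in Teff. Of these, Ssr3, a subunit of the translocon-associated protein complex, was at 10.14, 9.33 and 10.39 in CKO pTreg, against 10.14, 10.10 and 10.54 in Ctrl pTreg (−0.31 ± 0.34), a difference that CKO pTreg array 2 carried: without it the log2 fold change was 0.00. Ostc, of the oligosaccharyltransferase, was higher in CKO in 3 of 3 pairs in each cell type, with log2 fold changes of 0.17 ± 0.27 in pTreg and 0.18 ± 0.27 in Teff.

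The genes were also counted by same-numbered pairs. In pTreg, CKO was higher in 3 of 3 pairs for 4 genes (Sdf2l1, Creld2, Syvn1 and Ostc), where 17.5% of all genes were, and lower in 3 of 3 for 2 genes (Ddit3 and Ssr3), where 18.2% were. In Teff, CKO was higher in 3 of 3 pairs for 7 genes (Hspa5, Calr, Pdia3, Pdia6, Ssr1, Ssr4 and Ostc), where 12.8% were, and lower in 3 of 3 for 3 genes (Xbp1, Herpud1 and Syvn1), where 17.7% were. Syvn1, the ubiquitin ligase HRD1 of ER-associated degradation, is in the list of higher genes in pTreg and of lower genes in Teff. It was at 11.09, 10.90 and 10.96 in CKO pTreg, against 10.76, 10.54 and 10.83 in Ctrl pTreg, and at 11.67, 10.96 and 11.09 in CKO Teff, against 11.83, 11.09 and 11.39 in Ctrl Teff. The pTreg groups did not overlap (5.96% of all genes were higher without overlap), and the Teff groups did. The log2 fold change was 0.28 ± 0.22 in pTreg and −0.20 ± 0.22 in Teff. The difference between them, 0.48 ± 0.30 (SE), did not pass (limma adjusted p = 1.00, 0.282 with the block). Over the 30 genes, 0 passed for this interaction (0.0165% of all genes), and 0 had an unadjusted p under 0.05 (3.48%).

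The pTreg were then compared with the Teff of the same genotype. More of the 30 genes lay below 0 than among all genes: 26 of 30 in CKO, where 44.3% of all genes did, and 22 of 30 in Ctrl, where 47.6% did. The median log2 fold change was −0.26 in CKO (all genes 0.03) and −0.13 in Ctrl (all genes 0.01), and it stayed below 0 under quantile normalization (−0.28 in CKO and −0.16 in Ctrl) and median centring (−0.26 in CKO and −0.13 in Ctrl). No single gene passed: 0 of 30 in CKO (limma, 0.355% of all genes) and 0 of 30 in Ctrl (1.01%). At an unadjusted p under 0.05 there were 2 genes in CKO, Atf6 and Ddit3, where 10.8% of all genes were, and 2 in Ctrl, Syvn1 and Atf6, where 10.4% were, all lower in pTreg. Of these, Atf6 passed the filter on dim probes only through its Teff arrays. Lists of markers of other cells were mostly below 0 too, further so in CKO. There the log2 fold change had a median of −1.29 over the neutrophil markers (11 of 11 below 0), −3.16 over the basophil and mast cell markers (6 of 6), −2.55 over the CD8 and NK cell markers (5 of 6) and −0.19 over the myeloid and MHC class II markers (7 of 10). In Ctrl these medians were −0.08 (7 of 11), −0.18 (5 of 6), −0.25 (4 of 6) and, for the myeloid list, above 0 at 0.13 (2 of 10 below). Their part in the result was not tested. In bulk samples fewer cells of a type and less RNA per cell cannot be told apart.

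**Figure D3:**
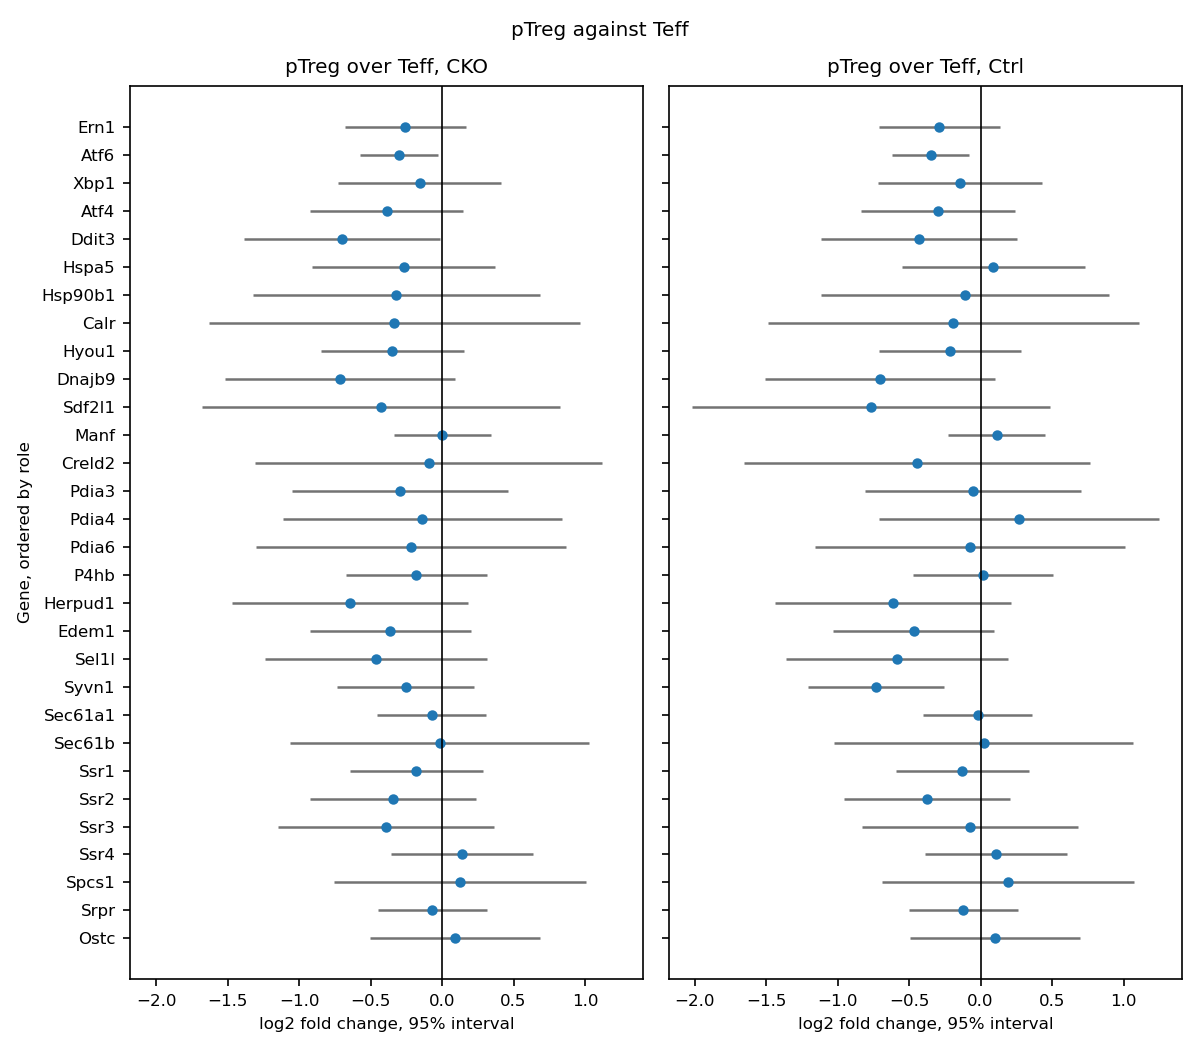
Log2 fold change of pTreg over Teff for the 30 tested genes on arrays labelled CKO (left) and Ctrl (right), with 95% intervals from limma (n = 3 per group). Most points lie left of 0, 26 of 30 in CKO and 22 of 30 in Ctrl, and the intervals exclude 0 for Atf6 and Ddit3 in CKO and for Syvn1 and Atf6 in Ctrl. Atf6 passed the filter on dim probes only through its Teff arrays.

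Of the 5 role groups, the 4 genes of degradation had the lowest median in pTreg against Teff of each genotype. These are Herpud1, a membrane partner of the ligase complex, Edem1, which hands over misfolded glycoproteins, and Sel1l and Syvn1, the core of the ligase complex. All 4 were below 0 in each genotype, with medians of −0.41 in CKO and −0.60 in Ctrl. A separate list of other genes of ER-associated degradation had medians over 17 tested genes of 0.03 in CKO (8 below 0) and 0.05 in Ctrl (7 below 0). The Sel1l probe used gave −0.46 in CKO and −0.58 in Ctrl, another probe above the median on 12 of 12 arrays gave 0.06 and 0.01, and a dimmer one −0.28 and −0.20. In Ctrl, Syvn1 had the smallest p of the 30 genes, at 10.76, 10.54 and 10.83 in pTreg, against 11.83, 11.09 and 11.39 in Teff. The groups did not overlap, and the log2 fold change was −0.73 ± 0.22 (SE, limma adjusted p = 0.194, and 0.0574 to 0.615 over its alternatives). In CKO it was −0.25 ± 0.22, with overlap.

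Sensors and factors were below 0 in 5 of 5 cases in each genotype, with medians of −0.30 in CKO and −0.30 in Ctrl. The counts and medians include Atf6, taken up below, and the CKO median is its own value. Apart from Atf6, the log2 fold changes in CKO were −0.26 for Ern1, −0.16 for Xbp1, −0.39 for Atf4 and −0.70 for Ddit3. In Ctrl they were −0.29, −0.14, −0.30 and −0.43 in the same order. Ddit3 was at 7.52, 7.56 and 7.04 in CKO pTreg, against 7.67, 8.79 and 7.76 in CKO Teff, without overlap and with a log2 fold change of −0.70 ± 0.31 (SE, limma adjusted p = 0.449). Atf6 did not overlap in either genotype, with log2 fold changes of −0.30 ± 0.12 in CKO (adjusted p = 0.397) and −0.35 ± 0.12 in Ctrl (adjusted p = 0.305), but its second probe gave 0.01 in CKO and −0.02 in Ctrl. The Atf6 probe used was above the array median on 6 of 12 arrays, all of them Teff. It passed the filter only through the cells where it is high, so its lower value in pTreg supports no difference. In all, pTreg was lower without overlap for 2 genes in CKO, Atf6 and Ddit3, where 5.58% of all genes were, and for 4 in Ctrl, Ern1, Atf6, Dnajb9 and Syvn1, where 6.47% were. There were 4 genes above 0 in CKO, at most by 0.14, and 8 in Ctrl. The highest in Ctrl was Pdia4, at 7.96, 7.62 and 8.11 in Ctrl pTreg, against 8.38, 6.52 and 7.99 in Ctrl Teff (0.27 ± 0.44, and −0.29 without Ctrl Teff array 2). Manf, a secreted stress factor, was at 4.7, 4.76 and 4.67 in Ctrl pTreg, against 4.37, 4.68 and 4.73 in Ctrl Teff (0.11 ± 0.15). Manf was dim, at 4.37 to 4.93 over all arrays and above the array median on 8 of 12. Ssr4 was at 11.80, 12.25 and 11.99 in CKO pTreg, against 11.93, 11.51 and 12.19 in CKO Teff (0.14 ± 0.22), and Ostc at 11.03, 11.07 and 11.30 in CKO pTreg, against 11.03, 10.55 and 11.54 in CKO Teff (0.09 ± 0.27).

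Most of the genes spread more between array numbers than between genotypes. For 27 of 30 genes in Teff the range of the 3 pair means was wider than the largest difference between CKO and Ctrl within a pair, where it was for 52.3% of all genes, and for 18 of 30 in pTreg, where it was for 41.4%. In Teff the arrays numbered 2 stood apart. Their pair mean was below the Teff mean for 24 of 30 genes (55.8% of all genes), and by more than 0.5 for 10 of 30 (6.51%). Over the 30 genes the median deviation was 0.25 for number 1, −0.31 for number 2 and 0.21 for number 3, where the medians of all genes lay between −0.03 and 0.02.

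The 10 genes were chaperones and co-chaperones (Creld2 at −1.15, Sdf2l1 at −1.06, Hsp90b1 at −0.90 and Calr at −0.88), disulfide isomerases (Pdia6 at −0.88, Pdia4 at −0.80 and Pdia3 at −0.60), Herpud1 at −0.80, and Spcs1 and Ssr3 at −0.66 and −0.56. Creld2, which is induced by ER stress, showed the widest such deviation, at 9.55, 8.39 and 9.80 on CKO Teff arrays 1 to 3 and at 9.88, 7.86 and 10.17 on those of Ctrl Teff. Ddit3 went the other way, 0.55 above the Teff mean on number 2. Of the 7 tested genes with ERSE or ERSE-II upstream of their start, shown above, 7 were below the mean on number 2 (55.8% of all genes). By more than 0.5 there were 5 (6.51% of all genes), and the median was −0.88. Of the other 17 tested genes with a RefSeq promoter, 12 were below and 5 by more than 0.5, with a median of −0.28. The arrays numbered 2 were set apart because the listed genes were low on them, so these counts are a description. The part of the motifs was not tested. On the same arrays the mean of the 11 neutrophil markers was highest, at 10.14 in CKO and 10.74 in Ctrl, against 9.65 and 7.46 on CKO Teff arrays 1 and 3 and 8.51 and 6.57 on those of Ctrl. In pTreg it was lowest on number 2, at 6.19 in CKO and 6.52 in Ctrl, where the 30 genes had a median deviation of −0.10. The myeloid and MHC class II mean was also highest on Teff number 2, at 8.62 in CKO, against 7.91 and 6.94 on CKO Teff arrays 1 and 3, and at 7.99 in Ctrl, against 6.16 and 5.76 on those of Ctrl. The CD8 and NK cell mean was 9.71 on CKO Teff array 2, against 8.78 and 7.82 on arrays 1 and 3, and 7.60 on Ctrl Teff array 2, against 7.75 and 7.54. The part of these markers in the deviations was not tested.

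**Figure D4:**
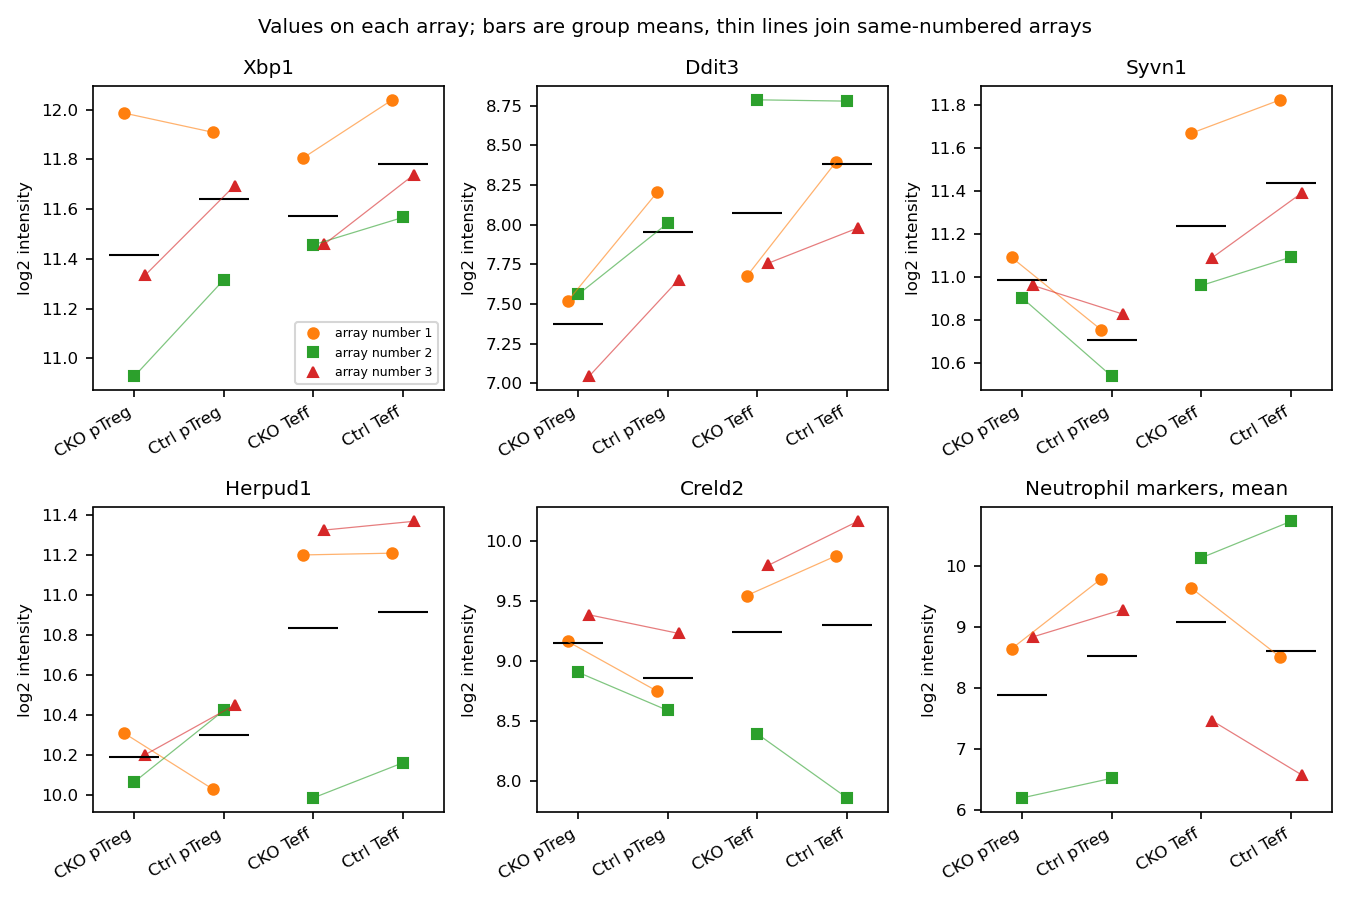
Log2 intensity on each array for Xbp1, Ddit3, Syvn1, Herpud1 and Creld2, and the mean of 11 neutrophil markers, in CKO pTreg, Ctrl pTreg, CKO Teff and Ctrl Teff. Symbols and colours mark the array number, thin lines join same-numbered arrays and bars are group means of 3. Teff arrays numbered 2 are lowest for Herpud1 and Creld2 in each genotype and highest for Ddit3 and for the neutrophil mean.

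Herpud1, with 2 probes of the same sign, was among the genes lowest on these arrays. It was at 10.31, 10.06 and 10.20 in CKO pTreg, against 11.20, 9.98 and 11.32 in CKO Teff, and at 10.03, 10.42 and 10.45 in Ctrl pTreg, against 11.21, 10.16 and 11.37 in Ctrl Teff. On arrays 1 and 3 of each genotype Teff lay above all pTreg values, and on array 2 it lay within or below them. With all arrays the log2 fold change of pTreg over Teff was −0.64 ± 0.37 in CKO (SE, limma adjusted p = 0.615) and −0.61 ± 0.37 in Ctrl (adjusted p = 0.682). Its second probe gave −0.89 in CKO and −0.62 in Ctrl. Without the Teff arrays numbered 2, an alternative chosen after seeing the data, the value was −1.07 in CKO and −0.99 in Ctrl. The count of the 30 genes past the threshold was then 1 in each genotype, Herpud1, where 0.314% of all genes passed in CKO and 0.941% in Ctrl. The arrays were left out because these genes were low on them, so a lower value of pTreg over Teff and a smaller spread follow from the choice, and these values are a description that supports no difference. Herpud1 here and Creld2 above were picked after their values were seen.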

How the data were processed

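The deposited table holds log2 intensities by probe and array, with the scale read from the range of its values. Per the labels, RNA was purified with Qiagen columns and made into biotinylated cRNA with the Ambion MessageAmp kit, and GenomeStudio and limma (version 3.30.11) are named in the submitters' processing notes. For background correction and normalization by the authors, the steps are not stated. Array medians were nearly equal, so the values were used as deposited. Of 31641 probes, 28197 had a single gene symbol in the platform annotation, 5 had several and 3439 had none.

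Probes above their array's median on at least 3 of 12 arrays were kept (17579), and each of 12119 genes was represented by its brightest one. Of 12 further kept probes of the listed genes, 8 shared the sign of the probe used between genotypes in pTreg, 7 in Teff and 9 between pTreg and Teff in each genotype. Limma 3.58.1 in R 4.3.3 (statmod 1.5.0, data.table version 1.17.8) fitted 1 mean per group to all 12 arrays, with 10.5 total degrees of freedom. Tests were two-sided, with Benjamini-Hochberg adjustment over all 12119 genes and a threshold of 0.05. The fit and its steps were tested on simulated data.

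Replicate numbers were taken to pair CKO with Ctrl within a cell type, since residuals of same-numbered arrays correlated at 0.519 to 0.589 in pTreg and 0.348 to 0.737 in Teff over all genes. They were not taken to pair pTreg with Teff, where all genes gave −0.266 to 0.325 and the listed genes 0.197 to 0.687. The listed genes, the further pathway lists and the marker lists were chosen with earlier results of these data known. Values on every array are given for the sensors, Hspa5 and, in each comparison, the 2 genes per direction with the smallest p, and for other genes as ranges or fold changes. From each further pathway list the gene with the smallest p between genotypes is named.

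Alternatives changed the scaling (quantile, or centring on medians), the filter (none, or the 75th percentile), the probe rule (mean over probes), eBayes (trend, robust), the array weights, the block (replicate number, fixed or random) and the arrays in the fit (those compared, or all but 1). Leaving out both arrays of a number in a cell type was added after seeing the data. The number of arrays limits the precision.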

Additional observations from a re-analysis of the deposited data

Results flagged for a closer look

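Syvn1 differed in direction between the cell types in every pair. Its log2 fold change of CKO over Ctrl was 0.28 in pTreg, with pairs at 0.34, 0.37 and 0.13, and −0.20 in Teff, with pairs at −0.16, −0.13 and −0.30. The interaction did not pass (limma adjusted p = 1.00, 0.282 with the replicate block). Over the fits that leave out 1 array, the pTreg value ran from 0.19 to 0.34 and the Teff value from −0.41 to −0.0024.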

How the results depend on the processing

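The count of genes past the threshold was 0 in all 5 comparisons under each alternative that kept both Teff arrays numbered 2 or left out 1 of them. Without both, it was 1 in pTreg against Teff in CKO and 1 in Ctrl (Herpud1 in each), in a direction that the choice of these low arrays fixes. With the replicate block the count was 0 in each comparison, so the block changed no call. Between pTreg and Teff, which the numbers were not taken to pair, the block moved the count at an unadjusted p under 0.05 to 4 of 30 in CKO (13.6% of all genes) and 6 of 30 in Ctrl (12.8%), each 2 without it. The median log2 fold change between genotypes in Teff was 0.30 without CKO Teff array 2, and −0.12 to 0.30 over the fits that leave out 1 array. In pTreg it ran from −0.04 to 0.07 over those fits. The medians of pTreg against Teff stayed below 0, at −0.36 to −0.15 in CKO and −0.29 to −0.05 in Ctrl, over all alternatives. Single genes that did not pass turned sign in a few settings. Ssr3 in pTreg was 0.0023 without CKO pTreg array 2 (−0.53 to 0.0023 over the fits that leave out 1 array), and Hyou1 in Teff was −0.031 without CKO Teff array 1 (−0.031 to 0.43). Pdia4 in Ctrl pTreg against Teff was −0.042 with array weights and −0.29 without Ctrl Teff array 2 (−0.29 to 0.64). In CKO, Ssr4 and Ostc were −0.044 and −0.16 without CKO Teff array 2, with ranges of −0.044 to 0.30 and −0.16 to 0.34. The values were the same for Pdia4, Ssr4 and Ostc without both Teff arrays numbered 2. Over the fits that leave out 1 array, genotype differences in pTreg also crossed 0 for Xbp1 (−0.51 to 0.02), Hspa5 (−0.37 to 0.22) and Ern1 (−0.11 to 0.04). In Teff they did for Atf4 (−0.28 to 0.16), Ern1 (−0.29 to 0.12) and Atf6 (−0.07 to 0.13). Of the other values for single genes, 678 kept their direction or moved by less than the replicate spread, and 3 moved by more. With 3 arrays per group, differences smaller than the intervals given were not detectable. Markers of other cells were present on the arrays, and their part in the differences was not tested.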

Other observations

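The wider pathway was followed through 7 further lists with 110 of 133 genes tested. In these, 0 genes passed between genotypes in pTreg (limma, 3 at an unadjusted p under 0.05, where 5.33% of all genes were) and 0 in Teff (3, where 4.17% of all genes were), with medians of 0.02 and 0.01. From each of the 7 lists the gene with the smallest p between genotypes is named, to give its values. In pTreg these were Ube2g2, a ubiquitin-conjugating enzyme of ER-associated degradation (0.49 ± 0.15, SE, limma adjusted p = 0.482), Mthfd2, a mitochondrial folate enzyme under ATF4 (0.49 ± 0.17, 0.630), Kdelr2, which returns chaperones from the Golgi (0.49 ± 0.23, 0.961), and Tmbim6, a membrane protein that limits cell death (−0.28 ± 0.12, 0.903). In Teff these were Clgn, a calnexin relative (0.49 ± 0.13, limma adjusted p = 0.983), Magt1, of the oligosaccharyltransferase (0.45 ± 0.18, 1.00), and Sec62, of the translocon (0.29 ± 0.13, 1.00). The Teff genes were dim, near the array medians of 4.66 to 4.68. Over the Teff arrays Clgn lay at 4.67 to 5.52, Magt1 at 4.20 to 5.12 and Sec62 at 4.48 to 4.93. On the Ctrl arrays of both cell types Magt1 lay at 4.20 to 4.53, below every array median. It passed the filter on dim probes only through CKO arrays, so its higher value there supports no difference.

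Between pTreg and Teff, 0 of the 110 genes passed in CKO (limma, 7 at an unadjusted p under 0.05, where 10.8% of all genes were) and 0 in Ctrl (12, where 10.4% were). Over all 110 genes the median was 0.00 in CKO, with 52 of 110 below 0 (44.3% of all genes), and 0.01 in Ctrl, with 54 of 110 below 0 (47.6%). The 23 tested targets of PERK and ATF4, many of them enzymes of amino acid supply, had medians of −0.33 in CKO and −0.20 in Ctrl, with 16 of 23 below 0 in each genotype, where 44.3% and 47.6% of all genes were. Neutrophil markers had medians of −1.29 in CKO and −0.08 in Ctrl, and the part of markers of other cells in these values was not tested. The 13 genes of N-glycosylation had medians of 0.25 in CKO and 0.08 in Ctrl, with 9 and 11 of 13 above 0. With the replicate number as a block, which was not taken to pair these arrays, 2 of 14 tested genes of the ER folding list passed in Ctrl (0.784% of all genes). These were Ero1b at −0.84 and Prdx4 at 1.31, both named after their values were seen. Without the block 0 of the 14 passed in Ctrl, with a lowest limma adjusted p of 0.104.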
